A study of Drosophila melanogaster with 36 samples.

Results

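Drosophila S3 cells, a line derived from fly embryos, store the fatty acid oleic acid (OA) as neutral fat in lipid droplets, and derivatives of chemotype 1 (CT1), a class of small molecules, either reduce this storage (active) or do not (inactive). The data described here are the 3 RNA-Seq libraries of cells with the active CT1 derivative THI-4 (active CT1) and the 3 libraries of cells with the inactive CT1 derivative THI-68 (inactive CT1), 6 of the 36 libraries of the series. They were chosen by the sample titles, and no measured value entered that rule. Earlier results of these data were known when the comparison and the gene lists used below were chosen. All 6 libraries came from cells of the same line given 200 µM OA, 0.1% DMSO and 1 µM of the compound for 4 h, so that the groups share line, feeding, solvent, dose and time and differ by the derivative. The labels do not state that replicates were separate cultures. The p-values rest on the spread between replicate libraries in a joint fit of 22 libraries, most of them outside these 6. That spread may be technical.

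In cells fed with fatty acids, triacylglycerol is built in the endoplasmic reticulum and kept in droplets coated by perilipins, and it is released by lipases. Fatty acids are burnt by beta-oxidation in mitochondria and in peroxisomes, which yields acetyl-CoA for the citric acid cycle and, in peroxisomes, hydrogen peroxide. Nutrient supply is read by insulin and TOR signalling, whose transcription factor FOXO acts on genes that restrain growth. Foreign compounds are handled by cytochrome P450 enzymes, glutathione S-transferases and UDP-glycosyltransferases. The question here was which genes, beyond those of lipid metabolism, differ between cells with the active and the inactive derivative.

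Active CT1 libraries held 6953834, 7366000 and 4244841 counts, and inactive CT1 libraries 4545370, 2669008 and 5068426 counts. Between 36.05% and 47.78% of these counts lay on the 18S rRNA gene. The Spearman rank correlation between replicates was 0.990 or more. The first principal component separated the groups, at -15.6 to -11.6 in active CT1 and 10.0 to 19.8 in inactive CT1, and the second set replicate 2 of inactive CT1, the least deep library, apart at 15.9. Of 38 marker genes of haemocytes, neurons, muscle, fat body and germ line, 19 had enough counts to be tested and 5 were at 0 counts in all 6 libraries, among them Fbp2 and Lsp1alpha of the fat body and lz and PPO2 of haemocytes. The 1 marker that differed was vkg, a collagen IV chain, which was lower with active CT1. The haemocyte markers summed to 4663 to 5415 CPM (counts scaled to library size) in active CT1 and 5008 to 5200 CPM in inactive CT1, and their part in the results was not tested. In counts scaled per library, fewer cells and less RNA per cell cannot be told apart.

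Of 7522 genes tested, 957 (12.7%) were differentially expressed (DE) at an adjusted p under 0.05 in edgeR's quasi-likelihood test, 633 (8.42%) higher and 324 (4.31%) lower with active CT1. Rises were larger than falls by the median, except among the scarcest genes. The median DE gene that rose did so by 0.51 on the log2 scale (1.42-fold), and 102 genes rose by 1 or more. The median DE gene that fell had a log2 fold change of -0.39, and 29 genes were at -1 or less. Over all genes tested the median was -0.01. All 3 active libraries lay above all 3 inactive libraries for 620 of the 633 genes (14.7% of all genes tested did so), and below them for 308 of the 324 genes (13.1% of all genes tested did so). When the genes were cut into 3 equal sets by average level, 20.4% were DE in the highest set, 11.4% in the middle set and 6.38% in the lowest set, so that small changes were called mainly in well counted genes. In the lowest set the median DE gene that rose was at 0.89 and the median DE gene that fell at -0.91. When each of the 6 libraries was left out in turn, 411 genes stayed DE and higher and 130 stayed DE and lower in every run. Genes given below as higher or lower are among these, except where a library is named on which the call rests. The split between rises and falls moved with the scaling. With limma on the deposited FPKM values without further scaling between libraries, the median of all genes was at 0.12 and 468 genes rose against 26 that fell, whereas with each library centred on its median 480 rose and 220 fell.

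**Figure D1:**
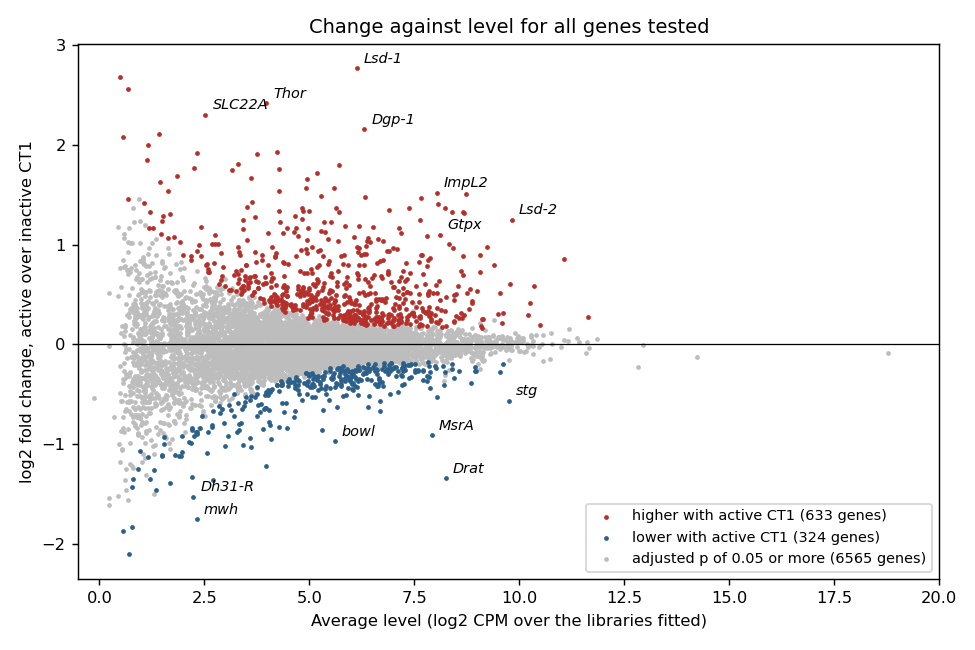
Each point is 1 of 7522 genes, with its average level on the x axis (log2 CPM over the libraries fitted) and its log2 fold change of active over inactive CT1 on the y axis. The 633 genes that rose reach 2.77 (Lsd-1) and the 324 that fell reach -2.11. Among the labelled genes Drat lies at -1.35, and the scarcer mwh and Dh31-R lie lower.

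The lipid genes are the setting of the other changes and are given here briefly. Of 57 genes tested in the lists for mitochondrial beta-oxidation, peroxisomal beta-oxidation, lipid droplets with triacylglycerol synthesis, and fatty acid synthesis, 44 rose and 0 fell. The largest rise of all genes above the level used for naming was that of Lsd-1 (perilipin 1). It stood at 201, 180 and 192 CPM with active CT1, against 32.1, 26.4 and 25.6 CPM with inactive CT1, a log2 fold change of 2.77 ± 0.10 (SE), adjusted p = 3.07e-23. Beta-oxidation genes moved in both compartments. In mitochondria 16 of 18 members rose with a list median of 0.77, among them whd, the carnitine palmitoyltransferase that admits fatty acids, at 1.32 ± 0.08. In peroxisomes 9 of 10 rose with a list median of 1.00, and the acyl-CoA oxidase Acox57D-d rose by 1.72 ± 0.11. Acbp2, which binds acyl-CoA and is in none of these lists, rose by 1.67 ± 0.21.

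Outside the lipid lists 589 genes rose and 324 fell. The largest rise among them at an average log2 CPM of 2 or more, and with the groups fully apart, was that of Thor, the fly 4E-BP, which holds back cap-dependent translation and is known as a target of TOR and FOXO. Thor stood at 52.6, 35.6 and 43.9 CPM with active CT1, against 7.85, 8.23 and 8.47 CPM with inactive CT1. The groups were far apart (log2 fold change 2.42 ± 0.16, adjusted p = 1.39e-15), and the 2 vehicle OA libraries in the fit, from OA-fed cells with DMSO and no compound, had 9.09 and 7.21 CPM, close to inactive CT1. The next was SLC22A, a member of the organic ion transporter family of that name. It stood at 16.6, 14.7 and 13.4 CPM, against 3.00, 2.40 and 3.35 CPM with inactive CT1 (2.31 ± 0.22, adjusted p = 5.91e-11). Dgp-1, which encodes a GTP-binding protein, was counted at 237, 175 and 233 CPM with active CT1 and 54.2, 46.6 and 43.2 CPM with inactive CT1 (2.16 ± 0.10, adjusted p = 1.61e-20).

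A secreted signal and a mitochondrial assembly factor were among the other large rises. The activin-like ligand dawdle (daw) had 23.9, 21.6 and 24.3 CPM with active CT1, against 7.15, 4.80 and 6.00 CPM with inactive CT1 (1.92 ± 0.21, adjusted p = 1.46e-09). Sirup, an assembly factor of succinate dehydrogenase, had 113, 99.3 and 95.4 CPM, against 27.7, 33.3 and 28.7 CPM with inactive CT1 (1.80 ± 0.09, adjusted p = 3.74e-19). The long non-coding RNA CR44138 rose by 1.94 ± 0.16, with 56.2, 37.2 and 40.8 CPM against 15.2, 11.7 and 8.99 CPM with inactive CT1. The remaining members of this group, CG10550, CG11378, CG17919, CG13315 and CG10383, have no role given here and rose by between 1.75 ± 0.18 (CG10383) and 1.92 ± 0.24 (CG10550).

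The genes behind the largest falls were mostly scarce. The exception was Drat, which encodes a protein with an alcohol dehydrogenase domain and is named for its part in cell death. It stood at 137, 124 and 125 CPM with active CT1, against 337, 331 and 313 CPM with inactive CT1 and 316 and 303 CPM in vehicle OA. Its log2 fold change of -1.35 ± 0.07 had the smallest adjusted p of the falls named, 6.89e-18. The lowest value among the genes named by size was that of mwh, a formin-related protein that keeps actin bundles in place in wing cells. It was near the floor of what these libraries count, at 2.12, 1.18 and 1.26 CPM with active CT1 and 6.00, 5.48 and 4.59 CPM with inactive CT1 (-1.76 ± 0.31, adjusted p = 4.26e-05). Dh31-R, the receptor of the diuretic hormone 31, had 1.84, 1.31 and 1.46 CPM with active CT1, against 4.62, 4.80 and 4.23 CPM with inactive CT1 (-1.53 ± 0.30, adjusted p = 0.000167).

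The other falls chosen by size had log2 fold changes between -1.36 (Jhbp5) and -0.98 (CG10801). The scaffold protein rols, known from myoblast fusion, had a log2 fold change of -1.02 ± 0.25 and the synaptotagmin-like btsz one of -1.09 ± 0.27, which was not called by limma on centred FPKM values (adjusted p = 0.195). Cc2d2a, a protein of the ciliary transition zone in animals, was at -1.03 ± 0.22, with 5.24, 6.57 and 6.90 CPM against 13.4, 14.1 and 11.3 CPM with inactive CT1. CG9119 was at 6.37, 7.75 and 7.32 CPM, against 16.4, 17.1 and 16.8 CPM with inactive CT1 (-1.22 ± 0.15, adjusted p = 1.65e-08). Jhbp5 (-1.36 ± 0.24) and CG8908 (-1.01 ± 0.18) were the others whose call did not rest on 1 library. Among the 12 falls chosen by size 3 calls did. CG11241 (-1.33 ± 0.32) lost its call without replicate 3 of inactive CT1 (adjusted p = 0.113). The long non-coding RNA CR43973 (-0.99 ± 0.28) lost it without replicate 1 of active CT1 (adjusted p = 0.0567) or replicate 2 of inactive CT1 (adjusted p = 0.0612). CG10801 (-0.98 ± 0.33) was still DE without replicate 1 of inactive CT1, while leaving out any of the other 5 libraries ended its call (adjusted p between 0.0554 and 0.567).

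**Figure D2:**
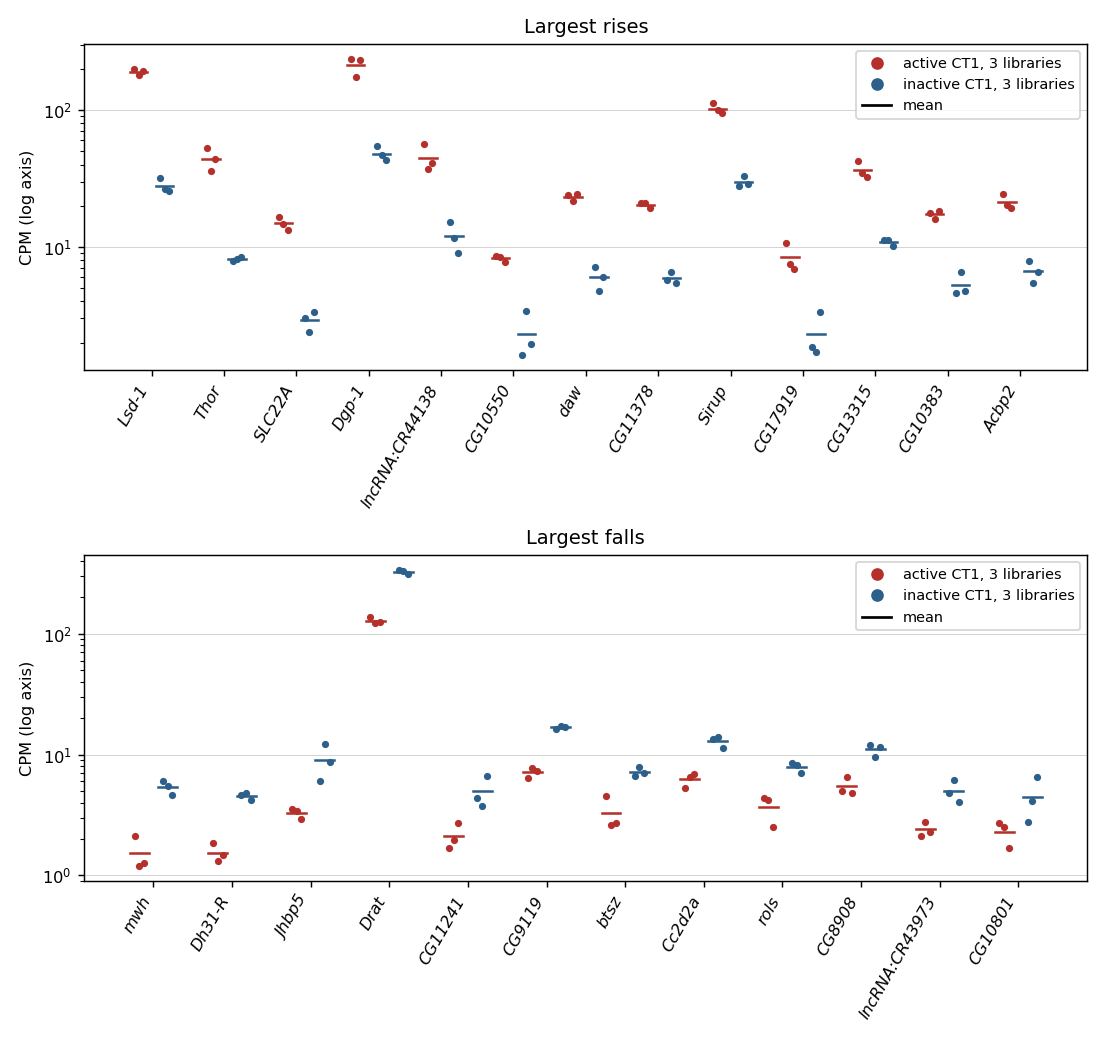
Points give the CPM of single libraries on a log axis for the genes with the largest rises (upper panel, with Lsd-1) and falls (lower panel) above the level used for naming, 3 active CT1 libraries left and 3 inactive CT1 libraries right of each tick, with the mean as a bar. The groups are apart in each gene because the choice required it. The widest gap is that of Lsd-1, and most of the falls lie under 20 CPM, Drat excepted. Levels can be compared within a gene but not between genes, since CPM are not scaled by gene length.

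Peroxisome genes changed beyond those of beta-oxidation. Of 13 peroxins tested, the proteins that build peroxisomes and bring in their enzymes, 10 rose and 0 fell, with a list median of 0.57. Pex6, an ATPase that recycles the import receptor, had 40.1, 36.3 and 37.4 CPM with active CT1, against 17.5, 15.1 and 17.5 CPM with inactive CT1 (1.16 ± 0.12, adjusted p = 1.05e-09). The docking protein Pex14 had 124, 113 and 114 CPM, against 60.5, 73.4 and 56.6 CPM with inactive CT1 (0.91 ± 0.08, adjusted p = 3.96e-12). Its partner Pex13 (0.69 ± 0.09) rose too. Between 8 and 10 peroxins were higher and DE when each library was left out in turn.

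Enzymes that remove peroxides were among the rises. Of 20 genes of the antioxidant list 8 rose, 1 fell and 11 did not pass the test, with a list median of 0.09. The glutathione peroxidase Gtpx had 475, 433 and 419 CPM with active CT1, against 194, 221 and 205 CPM with inactive CT1 (1.10 ± 0.07, adjusted p = 5.7e-16). Catalase (Cat), the peroxisomal enzyme that splits hydrogen peroxide, had 484, 458 and 500 CPM, against 319, 313 and 328 CPM with inactive CT1 (0.59 ± 0.06, adjusted p = 2.26e-10). The peroxiredoxins Prx6c (0.90 ± 0.07) and Prx6b (0.70 ± 0.07) are close copies that may share reads, so that their rises are not separate measurements. The 1 fall, of maf-S (-0.50 ± 0.16), a partner of the transcription factor cnc, was lost without replicates 1, 2 or 3 of active CT1 or replicates 1 or 3 of inactive CT1 (adjusted p up to 0.161).

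In each detoxification list a minority of members rose, while the list median stayed near 0. Over all genes tested 8.42% rose. Of 26 glutathione S-transferase genes tested 8 rose and 2 fell, and the list median was 0.06. The theta class led: GstT3 had 57.6, 50.3 and 52.1 CPM with active CT1, against 15.5, 18.9 and 19.4 CPM with inactive CT1 (1.57 ± 0.11, adjusted p = 1.34e-14), and its relatives GstT2 and GstT1 rose by 1.06 ± 0.09 and 0.62 ± 0.07. The microsomal transferase Mgstl rose by 0.82 ± 0.08. GstO3 of the omega class fell to 188, 183 and 154 CPM with active CT1, against 216, 231 and 235 CPM with inactive CT1 (-0.37 ± 0.07, adjusted p = 7.11e-05). The other fall, of GstS1 (-0.24 ± 0.07), was lost without replicate 1 of active CT1 or replicates 2 or 3 of inactive CT1 (adjusted p up to 0.226), which leaves 1 fall in the list.

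Among 39 cytochrome P450 genes with their reductase, 7 rose and 3 fell, and the list median was 0.04. Cyp6a8 had 94.4, 72.1 and 64.0 CPM with active CT1, against 29.5, 24.3 and 27.9 CPM with inactive CT1 (1.49 ± 0.12, adjusted p = 6.23e-13). Cpr, the reductase that passes electrons to these enzymes, rose by 0.42 ± 0.05 at a high level, with 1498, 1476 and 1516 CPM against 1131, 1122 and 1103 CPM with inactive CT1. The falls were those of Cyp310a1 (-0.43 ± 0.07), Cyp6g2 (-0.80 ± 0.20) and the scarce Cyp4d2 (-1.12 ± 0.30), the last of which was lost without replicate 3 of inactive CT1 (adjusted p = 0.115). Of 21 UDP-glycosyltransferase, esterase and epoxide hydrolase genes 7 rose and 0 fell, with a list median of -0.00. Ugt35C1 rose by 1.38 ± 0.17, and the juvenile hormone epoxide hydrolases Jheh1 and Jheh2 by 0.89 ± 0.09 and 0.73 ± 0.07.

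**Figure D3:**
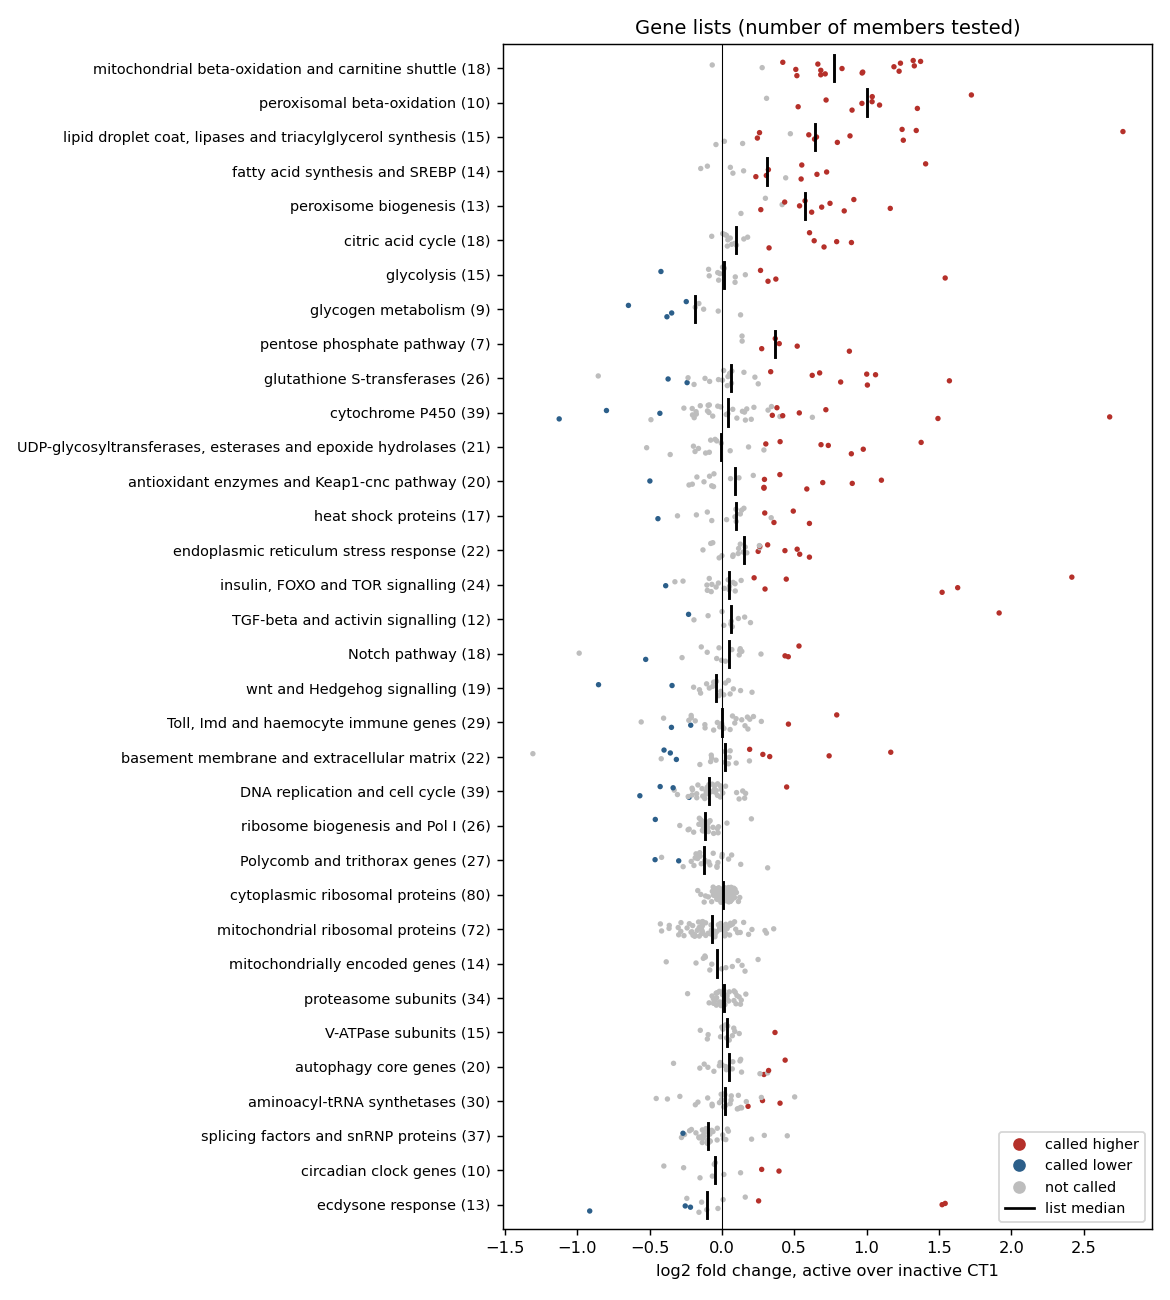
Each point is a gene of a list, by its log2 fold change of active over inactive CT1 (x axis), in red where it was DE and higher, in blue where it was DE and lower and in grey otherwise. Black bars mark list medians and the number after each name counts the members tested. The lipid lists and the peroxins lie to the right of 0 almost as wholes, the pentose phosphate list lies above 0, the glycogen list lies mostly below it, and ribosomal proteins and the proteasome hold no DE gene.

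Carbohydrate metabolism split by pathway. In the pentose phosphate pathway, which supplies NADPH and ribose, 5 of 7 genes rose and 0 fell, with a list median of 0.37. Zw, the glucose-6-phosphate dehydrogenase that opens the pathway, had 29.2, 26.9 and 27.8 CPM with active CT1, against 16.4, 14.7 and 14.5 CPM with inactive CT1 (0.88 ± 0.12, adjusted p = 1.7e-07). Transaldolase (Taldo) rose by 0.52 ± 0.07. The count fell to 2 without replicate 1 of inactive CT1, where Rpi (adjusted p = 0.0735) and Pgd (adjusted p = 0.073) lost their call.

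Among 9 glycogen genes 0 rose and 4 fell, 8 had a negative log2 fold change, and the list median was -0.18. Glycogen phosphorylase (Glyp), which releases glucose units from glycogen, had 42.6, 41.7 and 40.4 CPM with active CT1, against 53.3, 53.8 and 52.2 CPM with inactive CT1 (-0.35 ± 0.08, adjusted p = 0.000815). The 3 others, glycogen synthase Glys (-0.25 ± 0.08), the phosphoglucomutase Pgm1 (-0.38 ± 0.12) and the glycogen-binding subunit Gbs-76A (-0.65 ± 0.22), rested on few libraries. The count of falls was 4 without replicate 3 of active CT1, 2 without replicate 1 of inactive CT1, and 1, Glyp, without replicates 1 or 2 of active CT1 or replicates 2 or 3 of inactive CT1.

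Glycolysis and the citric acid cycle changed in a few enzymes. Lactate dehydrogenase (Ldh) had 40.8, 33.6 and 45.0 CPM with active CT1, against 16.8, 10.6 and 12.3 CPM with inactive CT1 (1.54 ± 0.14, adjusted p = 8.13e-12). It was 1 of 4 rises among 15 glycolytic genes, beside hexokinase Hex-A (0.37 ± 0.07), Gapdh1 (0.32 ± 0.07) and the pyruvate carrier subunit Mpc1 (0.27 ± 0.08), the last of which lost its call without replicate 3 of active or of inactive CT1 (adjusted p up to 0.212). The 1 fall, of CG9399 (-0.42 ± 0.13), was lost without replicates 1 or 2 of active CT1 or replicates 2 or 3 of inactive CT1 (adjusted p up to 0.167). The list median was 0.02. Of 18 citric acid cycle genes 6 rose and 0 fell, with a list median of 0.09. These 6 held pyruvate carboxylase (PCB), which feeds oxaloacetate into the cycle, at 275, 292 and 323 CPM with active CT1 and 164, 156 and 157 CPM with inactive CT1 (0.89 ± 0.07, adjusted p = 4.13e-13). They also held the succinyl-CoA synthetase subunits Scsalpha1 (0.71 ± 0.06), ScsbetaA (0.64 ± 0.06) and ScsbetaG (0.79 ± 0.08). None of the 14 genes tested on the mitochondrial genome was DE, nor was any of 72 mitochondrial ribosomal proteins, whose list medians were -0.04 and -0.07.

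**Figure D4:**
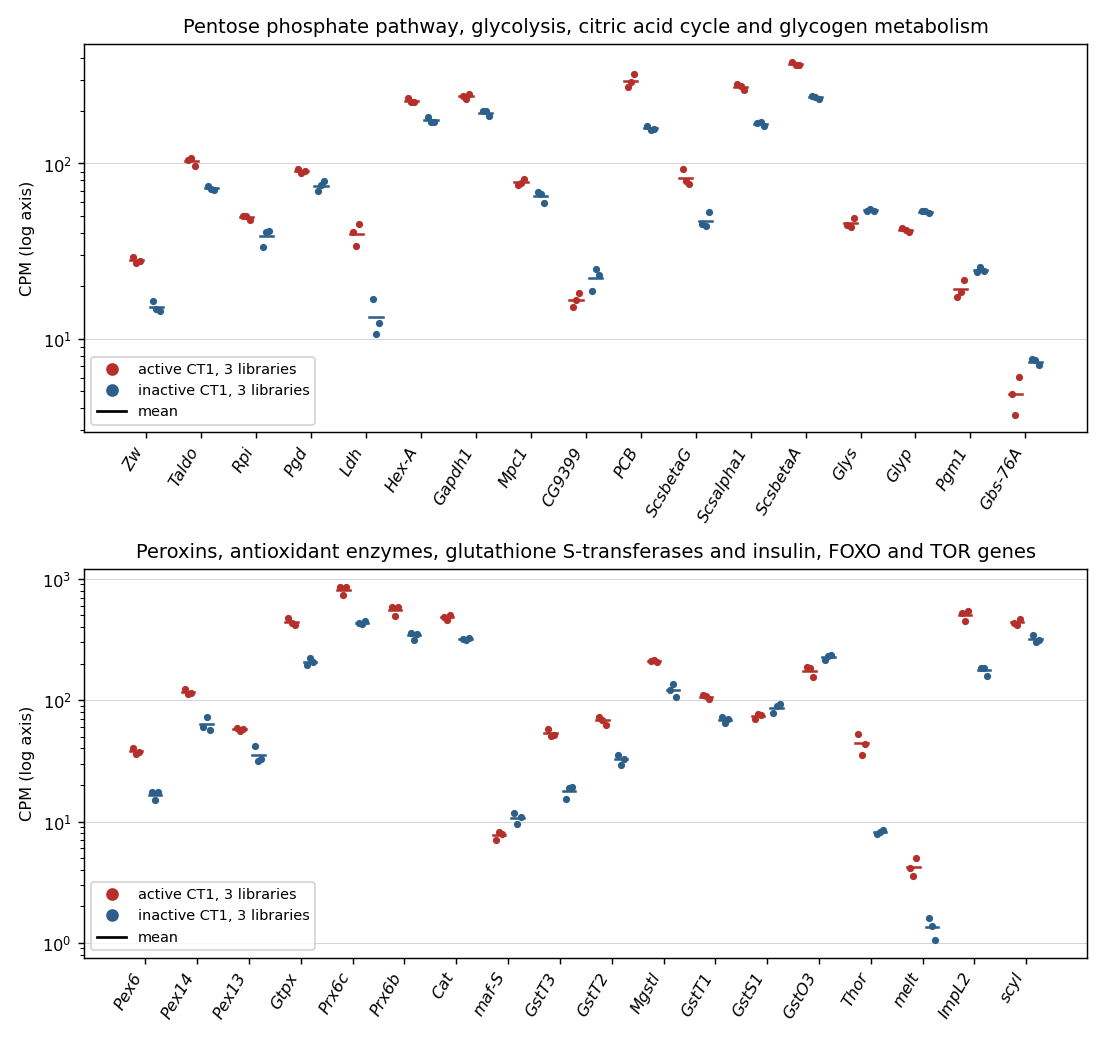
Points give the CPM of single libraries on a log axis, 3 active CT1 libraries left and 3 inactive CT1 libraries right of each tick, with the mean as a bar, for the DE genes named in 8 lists. In the upper panel pentose phosphate and citric acid cycle genes lie higher and glycogen genes lower with active CT1, and in the lower panel peroxins and peroxide-removing enzymes lie higher, with Thor, melt and ImpL2 furthest apart among the signalling genes.

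Nutrient signalling genes changed at a few points. Of 24 insulin, FOXO and TOR genes 6 rose and 1 fell, with a list median of 0.05. Beside Thor, these included ImpL2, a secreted protein that binds and blocks insulin-like peptides. ImpL2 had 519, 450 and 544 CPM with active CT1, against 186, 184 and 159 CPM with inactive CT1 (1.52 ± 0.08, adjusted p = 1.05e-18). The membrane protein melted (melt), known as a modulator of FOXO and TOR, had 4.10, 3.55 and 5.02 CPM, against 1.62, 1.37 and 1.06 CPM with inactive CT1 (1.63 ± 0.34, adjusted p = 0.00046). The scarce melt was not called by limma on centred FPKM values (adjusted p = 0.136). Scylla (scyl), an inhibitor of TOR, rose by 0.44 ± 0.07. When each library was left out in turn, the list had 5 to 6 rises and 0 to 1 falls. The core members chico, Akt, foxo, raptor, Tsc1, gig and Rheb did not pass the test, with log2 fold changes between -0.10 (Akt) and 0.13 (foxo).

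Protein folding genes rose by small amounts. Of 22 genes of the endoplasmic reticulum stress list 7 rose and 0 fell, with a list median of 0.15. The chaperone Hsc70-3, the fly BiP, had 1205, 1115 and 1306 CPM with active CT1, against 840, 765 and 777 CPM with inactive CT1 (0.60 ± 0.06, adjusted p = 1.7e-10). The transcription factor Xbp1 had 692, 661 and 683 CPM, against 469, 484 and 452 CPM with inactive CT1 (0.54 ± 0.06, adjusted p = 1.82e-09). Gp93 (0.32 ± 0.06) and Herp (0.44 ± 0.10) rose with them. Among 17 heat shock protein genes, a list that shares Hsc70-3 with the one above, 4 rose and 1 fell. The mitochondrial chaperones Hsc70-5 (0.36 ± 0.06) and Hsp60A (0.30 ± 0.06) and the small heat shock protein CG14207 (0.49 ± 0.08) were the other rises. Another small heat shock protein, Hsp27, fell to 46.4, 49.1 and 52.7 CPM, against 67.6, 67.9 and 65.4 CPM with inactive CT1 (-0.44 ± 0.09, adjusted p = 0.000323).

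Single genes of cell contact and cell shape changed in both directions. Talin (rhea), which ties integrins to actin, rose by 0.43 ± 0.08 and RhoGAP16F by 0.51 ± 0.07, whereas the alpha integrin if (-0.31 ± 0.06), the adaptor p130CAS (-0.33 ± 0.07) and the exchange factor RhoGEF3 (-0.53 ± 0.12) were lower. The rise of Act5C (0.27 ± 0.05) is uncertain, since actin genes are near-identical copies. In the matrix, the metalloproteinases Mmp1 (0.74 ± 0.18) and Mmp2 (0.33 ± 0.08) rose, and the collagen vkg (-0.31 ± 0.06) and the glypican dlp (-0.36 ± 0.09) fell. Of 22 matrix genes 5 rose and 3 fell, and 3 rose without replicate 2 of either derivative. Over all genes tested 8.42% rose and 4.31% fell. RhoGEF3, Mmp1, vkg and dlp were not called by limma on centred FPKM values (adjusted p between 0.0528 and 0.175).

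Signalling pathways of development held single changes. The shares of DE genes in the Wnt, activin and immune lists below were close to the 12.7% of all genes tested. The Notch co-activator mam had 186, 193 and 219 CPM with active CT1, against 294, 277 and 288 CPM with inactive CT1 (-0.53 ± 0.07, adjusted p = 8.55e-08), and the Notch ligand Ser (0.44 ± 0.09) and the ubiquitin ligases mib1 (0.53 ± 0.11) and Su(dx) (0.46 ± 0.07) rose, 4 of 18 genes in all. Among these mib1 was not called by limma on centred FPKM values (adjusted p = 0.0551). The wingless receptor fz2 had 7.93, 8.94 and 9.21 CPM, against 14.8, 15.8 and 16.2 CPM with inactive CT1 (-0.85 ± 0.16, adjusted p = 7.97e-05), and with Apc (-0.34 ± 0.06) it made 2 falls and 0 rises among 19 Wnt and Hedgehog genes. In the TGF-beta and activin list of 12 genes daw was the 1 rise, and the 1 fall, of the ligand myo (-0.23 ± 0.07), was lost without replicate 3 of active or of inactive CT1 (adjusted p up to 0.122). In the list of 29 Toll, Imd and haemocyte immune genes, the engulfment receptor drpr (0.46 ± 0.06) and the receptor Tl (0.79 ± 0.14) rose. The transcription factor Dif (-0.35 ± 0.08) fell. Stat92E (-0.22 ± 0.06) was the other fall and lost its call without replicate 1 of active CT1 or replicates 1 or 3 of inactive CT1 (adjusted p up to 0.0776). The zinc finger protein bowl, outside all lists, had 26.7, 31.4 and 30.8 CPM with active CT1, against 57.7, 56.9 and 59.1 CPM with inactive CT1 (-0.97 ± 0.09, adjusted p = 8.65e-12).

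In the cell cycle list the phosphatase string (stg), the Cdc25 that triggers mitosis, fell to 641, 621 and 683 CPM with active CT1, against 1014, 973 and 894 CPM with inactive CT1 (-0.57 ± 0.06, adjusted p = 2.88e-10). It was 1 of 4 falls and stood beside 1 rise among 39 cell cycle genes, a share close to the 12.7% of all genes, and 31 of the 39 had a negative log2 fold change, with a list median of -0.09. Without replicate 3 of inactive CT1 stg was the only fall. Ribosome biogenesis (24 of 26 genes negative, median -0.12) and Polycomb and trithorax genes (22 of 27 negative, median -0.12) had 1 and 2 falls, and 0 rises each. Over all genes tested 4.31% fell and the median was -0.01, so that negative values were the more common there too. The median of all genes moved with the scaling by about as much as these list medians lie from 0. The signs are those of the main test. When each library was left out in turn, the falls in these 2 lists ran from 0 to 2 and from 1 to 3. The Polycomb and trithorax list then had 0 to 1 rises. The fall of l(3)72Dn (-0.46 ± 0.13), the 1 in ribosome biogenesis, and that of ph-p (-0.30 ± 0.08), a Polycomb gene, were lost without replicate 1 of active CT1 or replicate 3 of inactive CT1 (adjusted p up to 0.127 and 0.0805). None of 80 cytoplasmic ribosomal proteins or 34 proteasome subunits was DE in edgeR's test, at list medians of 0.01 and 0.02. The steroid response list had 3 rises and 3 falls among 13 genes, with 1 to 4 falls when each library was left out in turn. The fall of ftz-f1 was lost without replicates 1 or 2 of active CT1 or replicates 1 or 3 of inactive CT1 (adjusted p up to 0.131), and that of Eip75B without replicates 1 or 2 of active CT1 or replicate 1 of inactive CT1 (adjusted p up to 0.334). The third, MsrA, a methionine sulfoxide reductase, fell to 149, 162 and 145 CPM, against 258, 293 and 308 CPM with inactive CT1 (-0.91 ± 0.07, adjusted p = 7.58e-13).

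A further 5 lists held few DE genes, with list medians between -0.09 and 0.05. Over all genes tested 8.42% rose and 4.31% fell, and whether any of these lists departs from those shares was not tested. Among 15 V-ATPase subunits, which acidify lysosomes, 1 rose, Vha100-1 (0.37 ± 0.08). Of 20 autophagy genes 3 rose and 0 fell, of which Atg13 (0.44 ± 0.09) held without each library, while ref(2)P (0.29 ± 0.07) was lost without replicate 1 of inactive CT1 (adjusted p = 0.0661) and Atg9 (0.32 ± 0.11) without any library but replicate 1 of active CT1 (adjusted p up to 0.144). Of 30 aminoacyl-tRNA synthetases 3 rose and 0 fell, of which HisRS (0.40 ± 0.08) and AlaRS (0.28 ± 0.06) held and ThrRS (0.18 ± 0.06) was lost without any of the 6 libraries (adjusted p up to 0.148). The 1 fall among 37 splicing genes, of Prp39, and the 2 rises among 10 circadian clock genes, of Pdp1 and vri, were lost without replicate 3 of inactive CT1 (adjusted p = 0.107, 0.165 and 0.0785), Pdp1 and vri also without replicate 3 of active CT1, and vri also without replicate 1 of inactive CT1.

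Most DE genes, 775 of 957, were in no list, and their places in the genome were looked at next. Chromosome arms and the order of genes were taken from the annotation of a later assembly by gene identifier. Genes that rose were found on each large arm, 105 of 1278 tested on X, 109 of 1335 on 2L, 139 of 1486 on 2R, 126 of 1382 on 3L and 140 of 1768 on 3R. Of 76 genes tested on chromosome 4, 0 rose and 3 fell, 0.93% of all falls, where it held 1.01% of all genes tested. Of the genes that rose, 155 (25.0%) had a tested neighbour that also rose, against 15.8% of all genes tested. For genes that fell the shares were 8.95% and 8.31%. With all 6 libraries there were 16 runs of 3 or more neighbouring genes that rose and 0 of genes that fell. Falls were fewer to begin with, at 4.31% of genes tested against 8.42% for rises. How many runs scattered calls would give was not worked out, so the 2 counts cannot be compared. Several of these runs are families of related genes, namely Jheh1, Jheh2 and Jheh3, the transferases Ugt35C1, Ugt302C1 and Ugt35A1 followed by cu, the organic cation transporters Orct2 and Orct followed by CG6356, and GstT1 and GstT2 after CG30339. Neighbouring relatives can share reads, and this was not tested.

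The comparisons of the other chemotypes were set beside that of CT1. Each depends on its inactive derivative as well as on the active one. The paper reports more DE genes against the OA-fed DMSO control for inactive CT2 than for inactive CT1 or inactive CT3. CT2 and CT3 were tested as pairs of an active and an inactive derivative in the same way, with 3 libraries each and no library in common with CT1. CT2 had 187 DE genes (2.49%), of which 153 (2.03%) rose and 34 (0.452%) fell. CT3 had 277 (3.68%), of which 235 (3.12%) rose and 42 (0.558%) fell. Of the 633 genes that rose with active CT1, 228 (36.0%) also rose with active CT3, which is 97.0% of the 235 genes that rose there. With active CT2, 88 also rose, 13.9% of the CT1 genes and 57.5% of the 153 CT2 genes. Of the falls, 17 were shared with CT3 (5.25% of the 324 CT1 genes and 40.5% of the 42 CT3 genes) and 2 with CT2, where 21 of the genes that fell with active CT1 rose instead. The median log2 fold change of the genes that rose with active CT1 was 0.24 in CT3 and 0.10 in CT2.

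The difference between the chemotypes' fold changes was itself tested. It passed the threshold for 578 genes (7.68%) between CT1 and CT2, 334 (4.44%) higher and 244 (3.24%) lower in CT1. Between CT1 and CT3 it did so for 117 genes (1.56%), 101 (1.34%) higher and 16 (0.213%) lower in CT1. Of these, 446 and 112 were also DE in CT1, whose libraries enter both tests. Thor and Dgp-1 were among the 4 genes with the largest differences on the higher side in both tests. Thor averaged 44.1 ± 8.52 CPM (SD, n = 3) with active CT1 and 8.18 ± 0.31 CPM with inactive CT1, whereas its means were 7.69 and 9.68 CPM with active and inactive CT2 and 10.5 and 9.12 CPM with active and inactive CT3. Dgp-1 averaged 214.8 ± 35.0 CPM with active CT1 and 48.0 ± 5.65 CPM with inactive CT1, 56.2 and 60.9 CPM with active and inactive CT2, and 61.0 and 49.8 CPM with active and inactive CT3. Drat stood at means of 329 and 330 CPM with active and inactive CT2 and fell by 0.36 with active CT3 (268 against 344 CPM).

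Several gene groups were called to different extents in the 3 chemotypes, with DE genes counted here in either direction. In the mitochondrial beta-oxidation list 16 of 18 genes were DE in CT1, 15 in CT3 and 8 in CT2, with medians of 0.77, 0.63 and 0.28. Of the 13 peroxins 10 were DE in CT1, 3 in CT3 and 0 in CT2, and the difference itself was called for 0 of them against CT3 and 3 against CT2. The endoplasmic reticulum stress list had 7 DE genes in CT1, 1 in CT3 and 3 in CT2, with medians of 0.15, -0.01 and -0.09. In CT1, 4 and 7 of its genes differed from CT3 and CT2. Hsc70-3 was at 0.60 in CT1, -0.04 in CT3 and -0.25 in CT2. Cyp6a8 differed in direction, at 1.49 ± 0.12 in CT1 and -0.80 ± 0.13 in CT2 (adjusted p = 0.000167), with 0.63 ± 0.15 in CT3.

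**Figure D5:**
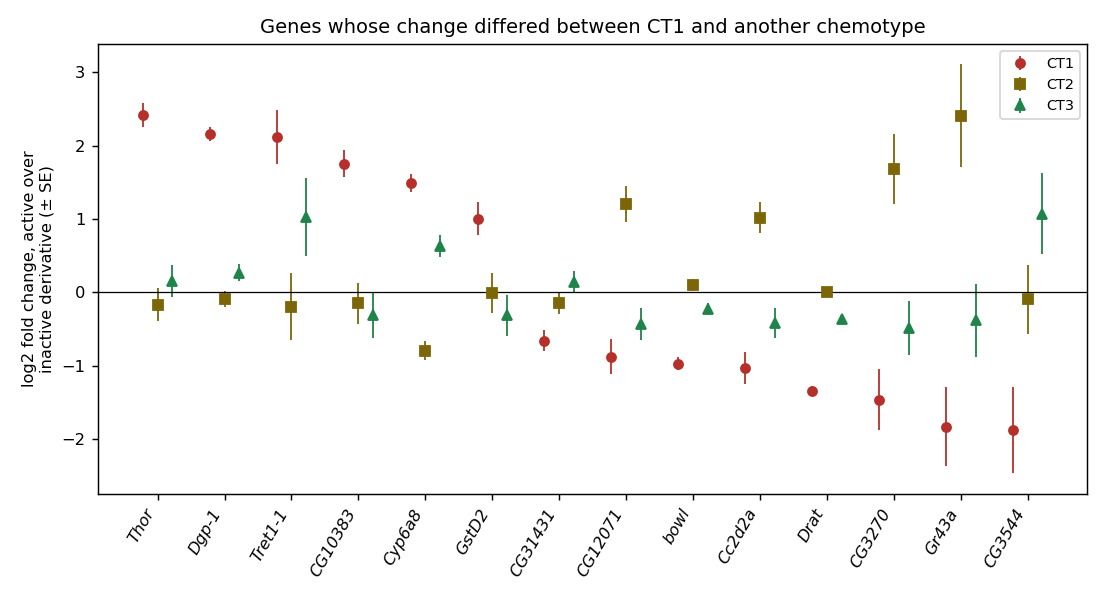
For 14 genes chosen by the size of the tested difference between chemotypes, points give the log2 fold change of the active over the inactive derivative in CT1, CT2 and CT3, with the SE as bars. Thor, Dgp-1 and CG10383 lie far above 0 in CT1 and within 0.31 of 0 in CT2 and CT3, while Cc2d2a, Gr43a, CG3270 and CG12071 lie below 0 in CT1 and above it in CT2.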

How the data were processed

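Stranded polyA RNA-Seq libraries of S3 cells were aligned by the authors to the fly genome (BDGP Release 5) with TopHat2 2.0.10, keeping 1 place per read. The deposited counts are raw reads per gene by HTSeq 0.5.4p1 with strand, and the deposited FPKM values come from Cufflinks 2.1.1. The study removed replicates with a low rank correlation, and 2 of the 24 libraries with DMSO (vehicle OA replicate 3 and vehicle noOA replicate 1) were left out in accordance with an earlier analysis of these data. A single quasi-likelihood fit in edgeR 4.0.16 (R 4.3.3) held the counts of the 22 others, scaled by TMM and filtered by filterByExpr. Benjamini-Hochberg adjustment ran over the 7522 genes of each comparison. CPM use normalized library sizes, SE were derived from the F statistic, and fold changes use edgeR's prior. The script was tested on simulated counts.

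The members and the 40 gene lists were chosen with earlier results of these data known. Genes were named by a rule, and genes whose calls depended on 1 library are given with that library or left out. From DE genes that reach 2 in average log2 CPM and whose groups are fully apart, it takes the 5 largest rises, and outside the lipid lists the 12 largest rises and the 12 largest falls. From each list it takes up to 4 DE genes with the smallest p in each direction, and for each difference between chemotypes the 4 largest on each side. Gene symbols were given to 16815 of 17142 identifiers, and 34 list entries matched no gene. No column was left unmapped. Some genes that the rule takes appear only in the counts of their lists, and a few genes and 1 list are not reported here. Chromosomes and neighbours are those of the BDGP6 annotation, which is not the build of the files, so that no coordinates are given. Alternatives were DESeq2 1.42.0, RLE factors, counts without 18S rRNA, other filters and library sets, the replicate number as a block, limma-trend (3.58.1) for FPKM after adding 1 or 0.1 and taking log2, and leaving out each library. Centring the libraries for limma was added after the data were seen.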

Additional observations from a re-analysis of the deposited data

Results flagged for a closer look

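The change with the active derivative differed between chemotypes for the genes below, each by the test of the difference of the log2 fold changes in edgeR (active over inactive CT1 minus active over inactive CT2 or CT3). Against CT2, Thor differed by 2.59 ± 0.29 (adjusted p = 2.01e-08), Dgp-1 by 2.25 ± 0.15 (adjusted p = 3.82e-14) and Cyp6a8 by 2.29 ± 0.18 (adjusted p = 2.35e-12). The trehalose transporter Tret1-1 differed by 2.31 ± 0.61 (adjusted p = 0.0108), and its call was lost without replicate 3 of inactive CT1 (adjusted p = 0.0587). The difference of Tret1-1 was also not called by limma, with or without centring (adjusted p between 0.23 and 0.513). On the other side were Cc2d2a at -2.05 ± 0.31, CG12071 at -2.08 ± 0.34, CG3270 at -3.15 ± 0.63 and the fructose receptor Gr43a at -4.24 ± 0.88. These genes had negative log2 fold changes in CT1 and positive ones in CT2. The CT1 call of Gr43a was lost without replicates 1 or 2 of active CT1 or replicate 3 of inactive CT1 (adjusted p up to 0.127). That of CG3270 was lost without replicate 1 of active or replicate 2 of inactive CT1, and that of CG12071 without replicates 1 or 3 of inactive CT1. Each was also lost with DESeq2. The difference of Gr43a was not called by limma, with or without centring. That of CG12071 was not called by limma on log2(FPKM + 1) or log2(FPKM + 0.1) with the filter (adjusted p = 0.105 and 0.0677). The differences of Tret1-1, Gr43a and CG3270 had no adjusted p with DESeq2. Gr43a and CG3270 averaged under 4 CPM in each group, and Gr43a had under 3 CPM in all 6 CT1 libraries.

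Against CT3, Thor differed by 2.26 ± 0.28 (adjusted p = 1.07e-06), CG10383 by 2.07 ± 0.36 (adjusted p = 0.000566) and Dgp-1 by 1.89 ± 0.15 (adjusted p = 2.34e-11). On the lower side Drat differed by -0.98 ± 0.10 (adjusted p = 3.17e-08) and bowl by -0.75 ± 0.12 (adjusted p = 0.000195). GstD2 at 1.32 ± 0.36 (adjusted p = 0.047), CG31431 at -0.80 ± 0.21 (adjusted p = 0.0379) and CG3544 at -2.95 ± 0.80 (adjusted p = 0.0487) passed the threshold narrowly, and each lost its call without 9 or more of the 12 libraries of the test (adjusted p up to 0.214, 0.165 and 0.135). No explanation of these differences was tested.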

How the results depend on the processing

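The count of 957 DE genes was within 1.5 times of the main value with DESeq2 (656), RLE factors (953), no filter (931), all 24 libraries (927), the 6 CT1 libraries alone (981) and limma on centred FPKM (700). It was 494, 495 and 412 with limma on log2(FPKM + 1), on log2(FPKM + 0.1) and without a filter, which were not scaled between libraries, and 749 to 847 when 1 CT1 library was left out. Rises numbered 392 with limma without a filter (633 in the main test), and 504 to 569 with 1 library left out. Falls were the less stable: 324 in the main test, 178 with DESeq2, 26, 28 and 20 with limma in the same order, and 221 to 299 with 1 library left out. Counts for the other comparisons also moved. For CT2 they were 187, with 118 by DESeq2, 21, 29 and 10 by limma in the same order, 68 with centring, and 59 to 420 with 1 library left out (420 without replicate 2 and 59 without replicate 3 of inactive CT2). For CT3 they were 277, and 92, 93 and 80 by limma. The CT1 minus CT2 difference had 578 genes, 378 by DESeq2, 104, 101 and 76 by limma and 375 with centring. The CT1 minus CT3 difference had 117 genes, 18, 13 and 16 by limma, and 70 to 108 with 1 library left out. Beyond the scaling of FPKM, the cause of these changes was not tested.

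The deviations of same-numbered libraries from their group means correlated at -0.032, 0.0087 and 0.037, which cannot show whether they were prepared together. Replicate 3 had the lowest share of 18S rRNA counts in both groups, at 36.05% in active and 39.09% in inactive CT1. Whether replicate numbers pair the samples was not tested. With the replicate number as a block 962 genes were DE, 930 of them shared with the main test. Eip75B, a fall of -0.22 that was lost without 3 of the 6 libraries, had the opposite sign with limma (0.015, 0.016 and 0.015), and so had the CT1 minus CT3 difference of CG3544 with limma without a filter (0.22). Of the 151 genes chosen by the rule, 127 kept their call with DESeq2, 124 of 150 with limma on centred FPKM and 93 of 150 without centring. The genes that held without each library in turn also held with DESeq2, and 8 of them, btsz, melt, mib1, Mmp1, vkg, dlp, RhoGEF3 and Psc, were not called by limma on centred FPKM. Depth limits the scarce genes, of which many falls near 2 CPM rest on few reads.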
